A study of Mus musculus with 18 samples.

Results

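The regions described here are open chromatin sites that lie away from gene starts and were listed in both of the sorted populations of burst-forming erythroid progenitors (BFU-E), one from stressed spleen and one from resting bone marrow (BM). Peaks of the stress list were kept when their annotated distance to the nearest transcription start site was over 1000 bp and when they overlapped an interval of the BM list by at least 1 bp. The rule kept 22183 regions, which are 46.7% of the 47530 distal peaks of the stress list (95% Wilson interval 46.2 to 47.1%) and come from 61661 stress peaks in all. Another 25347 distal stress peaks overlapped no BM peak and are called stress-only below, and 11738 of 14131 stress peaks near a start site were also shared. All animals were B6SJL mice. Stress BFU-E were sorted from the spleen at day 8 after lethal irradiation and a transplant of whole bone marrow cells, and steady-state BFU-E from the bone marrow of resting animals. Cells were first depleted of those bearing the mature lineage markers Ter-119, Gr-1, CD8, CD4 and B220 and then sorted with antibodies to CD71, CD9, CD24a, CD150, CD133, c-Kit and Sca1. The biotinylated antibodies were read with a Qdot605 label in one population and Qdot655 in the other, so tissue, irradiation with transplantation, and staining cannot be told apart between the populations. Assay for transposase-accessible chromatin (ATAC-seq) libraries were made from 3 samples of each BFU-E population, and RNA was sequenced from BM BFU-E and, in the stressed spleen, of colony-forming erythroid progenitors (CFU-E), of BFU-E and of multipotent progenitors (MPP), 3 of each. Nothing in the labels says that samples of a group came from separate animals or pools, so p-values measure only the spread between these samples, which may be technical.

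BFU-E are early progenitors committed to the red cell lineage. They give rise to CFU-E, which divide rapidly and begin to make haemoglobin. Open chromatin far from gene starts holds most enhancers, short elements where transcription factors bind and act on promoters over a distance, and also sites of CTCF, a factor that sets the borders of chromatin loops. In erythroid progenitors GATA1 or GATA2 binds the word AGATAA together with TAL1, LMO2 and LDB1, often next to an E-box, while ETS factors such as FLI1 and ERG and the factor RUNX1 occupy sites kept from the stem cell and megakaryocyte programmes. BMP4, hedgehog, glucocorticoid and hypoxia signals are known to drive the response of the spleen to acute anaemia.

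The windows below are examples of such regions at genes of transcription regulators and sorted antigens: the corepressor Cbfa2t3, the factors Gata1, Tal1, Meis1 and Ldb1, and the sorted surface antigens Kit, Cd9 and Slamf1 (CD150). They were picked from the highest-scoring member of each gene after the values were seen, and each is the stretch of 121 bp inside its peak with the most kinds of matches, given 5′ to 3′ on the plus strand of mm10 (GRCm38). Capitals mark matches, on either strand, to the GATA word AGATAA, to E-boxes of the form CAGNTG, to the ETS factor word CAGGAAG, to the RUNX factor word TGTGGTT, and to CTG followed after 8 bases by a GATA word. The last one is a partial E-box at the spacing used by the complex of GATA1 and TAL1, and only its fixed letters are in capitals.
Cbfa2t3, chr8:122719871-122719991: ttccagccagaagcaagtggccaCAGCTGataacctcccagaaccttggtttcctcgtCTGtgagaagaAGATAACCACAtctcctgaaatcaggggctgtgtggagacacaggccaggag
Gata1, chrX:7971437-7971557: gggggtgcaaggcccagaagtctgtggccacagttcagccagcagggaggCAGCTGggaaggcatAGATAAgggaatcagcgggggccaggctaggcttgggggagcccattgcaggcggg
Tal1, chr4:115048359-115048479: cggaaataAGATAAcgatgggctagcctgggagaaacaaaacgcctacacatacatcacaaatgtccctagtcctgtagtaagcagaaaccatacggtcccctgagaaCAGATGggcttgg
Meis1, chr11:18925128-18925248: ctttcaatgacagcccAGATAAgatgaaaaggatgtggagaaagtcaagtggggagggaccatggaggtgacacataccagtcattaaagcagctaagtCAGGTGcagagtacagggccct
Kit, chr5:75730859-75730979: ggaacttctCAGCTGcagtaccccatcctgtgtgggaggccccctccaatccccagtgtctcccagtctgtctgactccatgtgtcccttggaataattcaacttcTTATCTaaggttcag
Cd9, chr6:125481785-125481905: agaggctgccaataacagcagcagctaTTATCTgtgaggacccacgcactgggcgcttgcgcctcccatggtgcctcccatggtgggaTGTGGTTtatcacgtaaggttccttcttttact
Slamf1, chr1:171761745-171761865: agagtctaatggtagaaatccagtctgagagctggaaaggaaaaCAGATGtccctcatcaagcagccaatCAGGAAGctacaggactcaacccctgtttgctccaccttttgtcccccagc
Ldb1, chr19:46050581-46050701: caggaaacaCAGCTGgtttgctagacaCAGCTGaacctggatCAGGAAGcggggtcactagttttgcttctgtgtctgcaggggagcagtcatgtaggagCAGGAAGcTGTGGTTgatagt
The Cbfa2t3 window, from an intergenic peak centred 21089 bp upstream of the gene, held an E-box, a partial E-box with a GATA word, and a RUNX word that overlapped the GATA word on the other strand. The Gata1 window, from a peak centred 3492 bp upstream of its start, held an E-box and a GATA word. The Tal1 window, from a peak centred 8180 bp upstream, held the same pair of words. The Meis1 and Cd9 windows were intronic, and the peak of the Kit window was centred 156083 bp from the Kit start. The Ldb1 window, in a long terminal repeat (LTR), held E-box, ETS and RUNX words and no GATA word. Scores of the stress and BM lists were 1000 and 1000 at Cbfa2t3, Gata1, Meis1, Kit and Slamf1, 1000 and 898 at Tal1, 1000 and 905 at Cd9, and 1000 and 715 at Ldb1.

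Each ATAC list is a single list merged by the authors over the 3 libraries of a population, so a region has 1 stress value and 1 BM value with no replicate spread, and no test between the populations was possible. The stress list was larger than the BM list, with 61661 against 35142 distinct intervals, and 93.8% of the 23450 distal BM peaks overlapped a stress peak. RNA libraries held 5937778 to 13197159 counts in the spleen populations and 6758871 to 9463498 in BM BFU-E. Of 37 erythroid effector genes, 25 had a mean of at least 1 RPKM (reads scaled to transcript length and to the reads mapped in the library) in stress BFU-E and 23 in BM BFU-E, and all 18 megakaryocyte markers did so in stress BFU-E against 17 in BM. Summed RPKM of the megakaryocyte markers was 586 to 700.3 in stress BFU-E, 861 to 1080 in BM BFU-E. Levels of 294 to 349 were seen in MPP, while CFU-E libraries held 34.0 to 35.6. Of 22 myeloid markers, 18 reached 1 RPKM in stress BFU-E and 19 in BM BFU-E, with summed levels of 227 to 359 and 291 to 836. In bulk samples, fewer cells of a type and less RNA per cell cannot be told apart.

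The regions had mostly the highest score in the stress list and scores over the whole range in the BM list. Scores run from 415 to 1000 in both lists, and the median member had 1000 in the stress list and 745 in the BM list. In the stress list 71.2% of members were at the highest score, and in the BM list 19.9%. Shared promoter peaks were at the highest stress score in 88.95%. The 1461 distal BM peaks that overlapped no stress peak had a median BM score of 522. Both lists gave the highest score to 4295 members (19.4%), only the stress list did so for 11504 (51.9%), only the BM list for 122, and neither for 6262. The score was higher in the stress list for 76.0% of members, equal for 19.4% and higher in the BM list for 4.6%. Scores of different lists depend on each list's own depth and agreement among libraries, so a lower BM score is not a measure of less open chromatin. Across members the scores had a Spearman rho of 0.479 and the widths 0.675, over regions called from the same pair of merged lists.

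**Figure D1:**
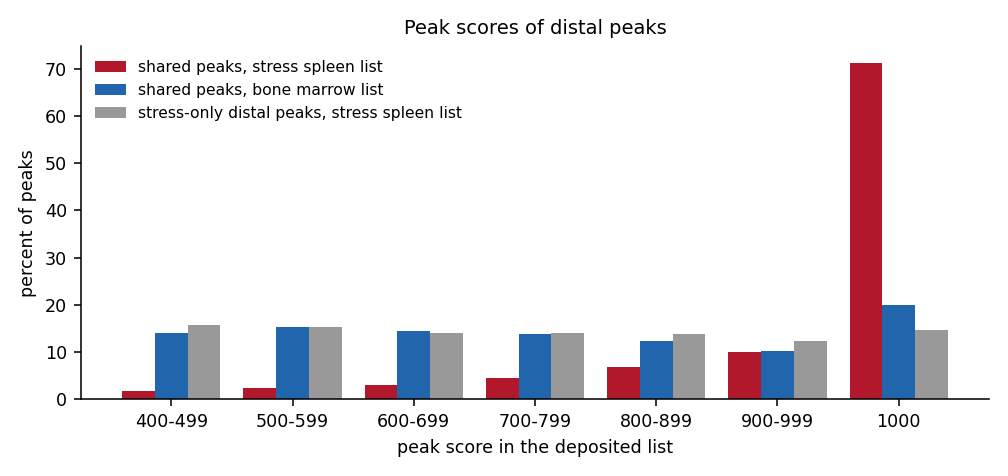
Share of distal peaks (percent, y axis) by peak score (x axis, in steps of 100 with the highest score on its own) for shared regions in the stress list, shared regions in the BM list and stress-only distal peaks. The shared regions crowd at 1000 in the stress list (71.2%) and spread over all scores in the BM list, where 19.9% reach 1000.

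The sites had nearly the same extent in both populations. Median width was 652 bp in the stress list and 667 bp in the BM list, and the median overlap was 565 bp. In 93.0% of members the overlap covered at least 50% of both peaks, and the peak centres were within 100 bp of each other in 74.6%. The BM peak was the wider one in 53.7% and the stress peak in 45.6%. A single BM interval was met by 21982 members and several by 201. Stress-only distal peaks were narrower, with a median of 440 bp, and had a median score of 734.

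Strong and wide stress peaks were the ones found again in BM, which is how the overlap rule sorts them and is given as a description. Of distal stress peaks with a score under 540, 9.6% were shared, and of those at 1000, 80.9%. The shared percentage was 17.1% for peaks up to 300 bp wide and 75.7% for those over 1200 bp. Distance made little difference: 46.1% were shared between 1000 and 3000 bp from a start site, 47.0% between 10000 and 50000 bp, and 46.3% beyond 100000 bp. At the distance limit, the members nearest to it were annotated to Fcer2a at 1001 bp (scores 615 and 920) and to Gm1720 at 1001 bp upstream (687 and 1000), while a shared peak at Ccin lay 1000 bp upstream (1000 and 1000) and was left out. The smallest overlaps kept were 6 bp at Mir6388 and at Mrs2, and the closest misses were gaps of 2 bp at Dpcd, 8 bp at Krtap5-5 and 21 bp at Tnk2. In all, 125 stress-only distal peaks lay within 100 bp of a BM peak and 969 within 500 bp.

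**Figure D2:**
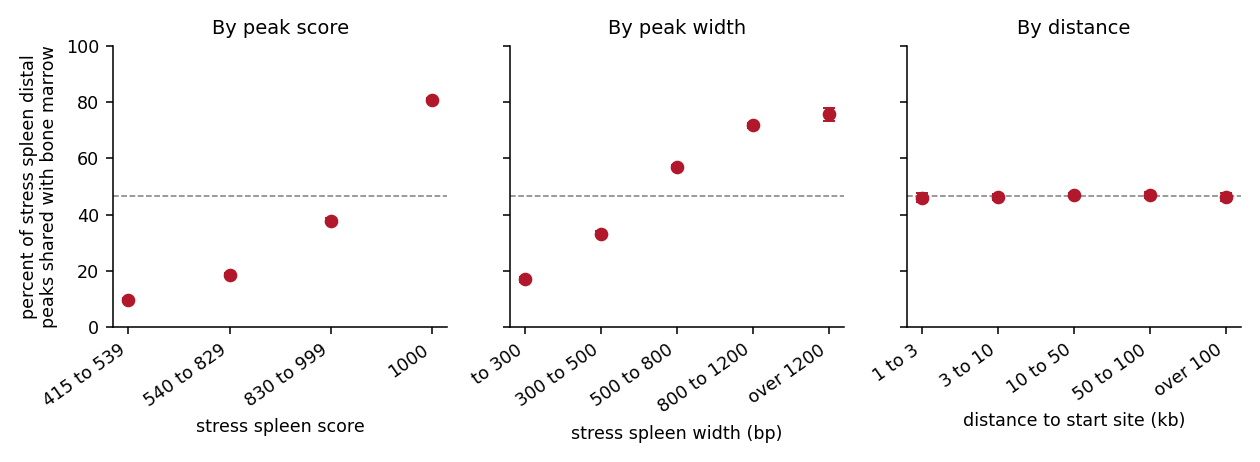
Percent of distal stress peaks that overlap a BM peak (y axis, points with 95% Wilson intervals that cover counting only; the dashed line is the 46.7% of all distal stress peaks) by stress score, by peak width in bp and by distance to the nearest start site in kb (x axes). The share climbs with score from 9.6 to 80.9% and with width from 17.1 to 75.7%, and stays between 46.1 and 47.0% across distance.

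The shared regions were spread through introns and intergenic DNA, with few in other parts of genes. Introns held 46.1%, intergenic sequence 47.9%, exons 2.4%, transcription end sites 1.9%, 3′ untranslated regions 1.3% and 5′ untranslated regions 0.1%. The median distance to the annotated start was 22429 bp, against 22102 bp for stress-only distal peaks, and 42.4% lay upstream of it. Their centres fell in an LTR, the promoter-bearing end of an endogenous retrovirus, in 6.5% (6.2 to 6.8%) against 9.0% (8.7 to 9.4%) of stress-only peaks. Short interspersed elements held 3.0% of member centres against 6.0% of stress-only centres, and CpG islands 4.0% against 1.2%. Satellite DNA held 46 members and ribosomal RNA repeats 61, where short reads cannot be placed with certainty. These intervals, as those for motifs below, are 95% Wilson intervals over peaks, and neighbouring peaks are not independent.

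Some of the regions lie at starts that the peak annotation does not carry. In the GENCODE M21 gene set, 2898 members (13.1%) had their centre within 1000 bp of a transcript start, among them 1724 at protein-coding, 361 at long intergenic non-coding and 162 at antisense transcripts. The share was 9.4% (9.1 to 9.8%) of stress-only distal peaks. Members at such starts had a median GC content of 54.7% against 50.2% for the others and a median BM score of 790 against 738. The GATA word was in 8.4% of them and in 14.0% of the others.

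The widest overlap of a member with a BM peak, 2863 bp, was in intron 13 of Edem3, which helps destroy misfolded glycoproteins, at chr1:151800152-151803052, and scored 1000 in both lists. The next was 2840 bp long in a CpG island upstream of Nr3c1, the glucocorticoid receptor. Others were at Ywhaz (2295 bp), Klf12 (2236 bp), Gltscr1l (2160 bp), Csf2ra (2094 bp), B230319C09Rik (2001 bp), Pgr (1997 bp) and Mir5106 (1994 bp). All 10 of the widest overlaps scored 1000 in the stress list, and in the BM list the lowest was 496, at Gltscr1l.

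In the central 201 bp, the GATA, ETS (CAGGAAG) and RUNX words were more frequent in shared distal regions than in shared promoters. Some other words of haematopoietic factors differed less. The KLF1 word CCACACCC was in 2.7% of members and 2.2% of shared promoters, and the E-box CAGNTG in 44.4% and 31.0%. The GATA word AGATAA was in 2938 members (13.2%, 12.8 to 13.7%), in 14.7% (14.3 to 15.1%) of stress-only distal peaks and in 2.6% (2.3 to 2.9%) of shared promoter peaks. Over whole peaks, which are wider among members, the order of shared and stress-only distal peaks turned, at 32.4% and 27.4%. The ETS word CAGGAAG was in 18.6%, 18.4% and 8.0% of these classes, and the RUNX word TGTGGTT in 11.9%, 11.4% and 2.4%. The partial E-box with GATA was in 241 members (1.09%, 0.96 to 1.23%) against 0.88% (0.77 to 1.00%) of stress-only peaks and 0.09% of shared promoters. Over all 61661 stress peaks these words were in 11.5% (GATA), 16.2% (ETS), 9.6% (RUNX) and 0.78% (partial E-box with GATA). The words GGCGCC and CCGGAAG went the other way, at 4.3% and 2.7% of members but 19.97% and 10.3% of shared promoters. Promoter windows had a median GC content of 66.7% against 50.7% in members, and the part of base composition in these differences was not tested. Both strands were searched and 19 words in all, and a match is not a bound site.

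In the central 201 bp, CTCF had the widest gap of the 19 words between shared and stress-only distal peaks. Over whole peaks its gap was narrower (15.6 against 17.4%) than that of the E-box (81.0 against 70.7%), of the MYB word TAACNG (50.7 against 40.5%) and of the NFY word CCAAT (52.7 against 42.8%). A core of the CTCF motif, spelled CCA, any 2 bases, AG, any 2 bases and GGC, was in 1886 members (8.5%, 8.1 to 8.9%), in 3270 stress-only distal peaks (12.9%, 12.5 to 13.3%) and in 1.9% of shared promoters, with 8.9% over all stress peaks. Members with it had a median BM score of 668 and BM width of 494 bp, against 754 and 684 bp for members without it. Among members at the highest score in both lists 4.1% (3.5 to 4.7%) held it, and among those under the highest score in the stress list 11.2% (10.4 to 12.0%). The partial E-box with GATA ran the other way over the same classes, at 1.49% (1.17 to 1.90%) and 0.55% (0.39 to 0.76%).

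Matches to the CTCF, RUNX and ETS words, and less so to the GATA word, were gathered at the peak centre. The density of the CTCF word within 60 bp of member centres was 6.96 times that at 400 to 500 bp from them, and the ratios were 3.09 for RUNX, 2.77 for ETS, 1.28 for GATA and 1.09 for the CEBP word TTGCNNAA. Stress-only distal peaks had ratios of 11.35 for CTCF, 2.89 for RUNX, 3.04 for ETS, 1.42 for GATA and 1.01 for CEBP. In shared promoters the GATA ratio was 0.39. The GATA word is short, and the longer AGATAAG, tried after the data were seen, was in 5.2% of members with a ratio of 2.11. Longer forms for ETS (CAGGAAGT) and RUNX (TGTGGTTT) gave ratios of 4.60 and 4.61. For stress-only distal peaks the ratios of these 3 longer words were 2.36, 5.28 and 4.15.

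**Figure D3:**
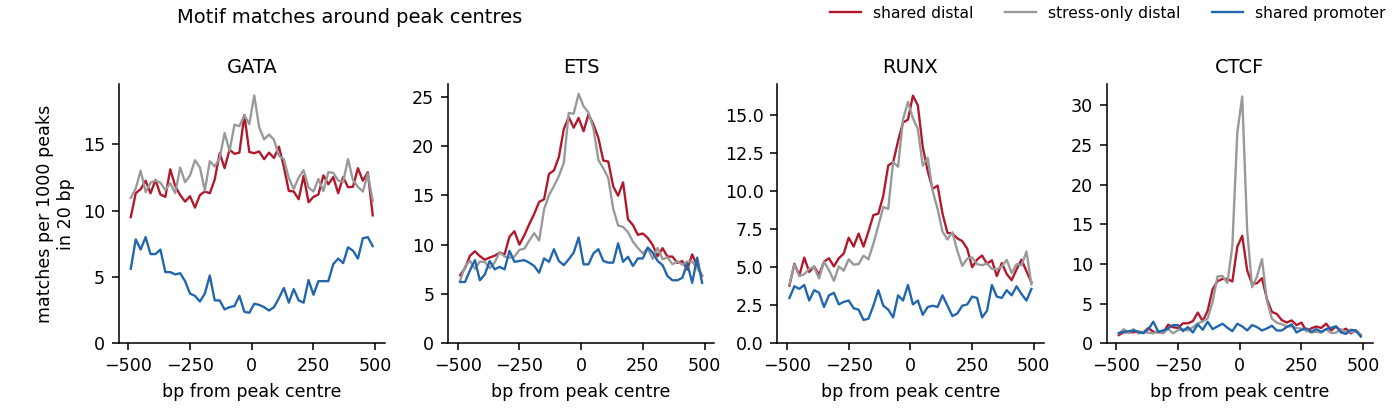
Matches per 1000 peaks in bins of 20 bp (y axes) by distance from the peak centre in bp (x axes) for the GATA, ETS, RUNX and CTCF words in shared distal, stress-only distal and shared promoter peaks. All 4 words peak at the centre of distal regions, with CTCF the sharpest (6.96 times its flank level in shared regions) and GATA the flattest (1.28 times).

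Regions in retroviral LTRs differed in content from the other members. Of 1441 LTR-centred members, 15.3% (13.6 to 17.3%) held GAGGAAGT, a word of the ETS factor PU.1, against 6.1% of all members. The ETS word CAGGAAG was in 25.5% of them, the RUNX word in 16.4% and the CTCF word in 4.3%. The LTR share includes repeated copies of like sequence, so these members are not independent of each other.

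Members were mostly solitary. With a gap of up to 10000 bp joining neighbours, the 22183 regions formed 17162 groups, of which 13530 were single regions (61.0% of members) and 103 had 5 or more. The densest, with 18 members, lay at chr9:3002024-3031859 and was annotated to Mir101c. Of these, 17 had the highest score in both lists, and the block is satellite DNA. The next were 10 members at chr6:47739861-47799558 (Rn4.5s and Mir704), 9 at chrY:90718508-90744933 (Erdr1), 9 at chr7:19295679-19327514 around Fosb and Rtn2, and 8 at chr8:94953648-94979254 around Adgrg1, an adhesion receptor of stem and progenitor cells. No stress-only peak lay between the members in the Mir101c, Rn4.5s, Fosb and Adgrg1 groups, and 2 did so in the Erdr1 group.

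The T cell receptor and immunoglobulin heavy chain loci held many shared regions in these erythroid populations, and many stress-only peaks as well. The immunoglobulin kappa and lambda loci held few or none. The genes V, D and J of these loci are joined by rearrangement in lymphocytes, and the V gene promoters form large families of like sequence. The T cell receptor alpha and delta locus (chr14:52427928-54149294) held 47 members and 43 stress-only peaks, which is 27.3 members per Mb against 8.36 over the stretches between the first and last stress peak of each chromosome. The immunoglobulin heavy chain V region (chr12:113572927-116010093) held 51 members, 20.9 per Mb, of which 19 were at the highest score in both lists, and 40 stress-only peaks. Most members of these 2 loci, 30 of 47 and 43 of 51, lay within 1000 bp of a V gene start, though their annotated distance made them distal. Of the functional V genes, 24 of 113 and 34 of 113 had such a member. A stress-only peak lay at 22 and 21 of the V genes. The T cell receptor beta locus had 10 members (14.99 per Mb) and 17 stress-only peaks. Of its 22 V genes, 6 had a member and 4 a stress-only peak. The immunoglobulin kappa locus had 2 members, 0.64 per Mb, and 5 stress-only peaks, with none of either at its 100 V genes, and the lambda locus had none. The peak annotation gives these regions to neighbouring genes, so that Olfr1507 (28 members), Mir6388 (27) and Dad1 (22) head the list of genes with the most members. Of 19 lymphoid marker genes, 3 reached 1 RPKM in stress BFU-E and 5 in BM BFU-E, with summed levels of 38.7 to 52.9 and 35.9 to 68.8. Cd3e, Cd8a, Il7r, Pax5 and Rag1 were at 0 in all libraries of both BFU-E populations. Placement of reads among V genes is uncertain, and the part of lymphoid cells in these regions was not tested.

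Globin loci, chosen after the data were seen, held shared regions within Nprl3 and around the beta globin genes. Whether any of these regions is a globin control element was not tested. Within Nprl3, whose introns carry the enhancers of the alpha globin genes, 3 members lay at chr11:32238471-32238803, chr11:32247166-32247521 and chr11:32265129-32265604. Their stress and BM scores were 1000 and 560, 870 and 845, and 1000 and 1000, and the last one held a GATA word. Upstream of the beta globin genes a member at chr7:103860937-103861407 scored 1000 in both lists. A further member at chr7:103792786-103793449, annotated to Olfr67, scored 1000 and 685. The same stretch held 4 stress-only distal peaks, and those at chr7:103859146-103859469 and chr7:103870564-103871044 scored 1000 in the stress list and held GATA words.

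The regions were assigned to 10185 nearest genes, of which 5077 had 1 member, 4168 had 2 to 4, 846 had 5 to 9 and 94 had 10 or more. After the loci above, the genes with most members were Elmo1 (20), Klhl25 (19), Adgrl2 (18) and Tns3 (17), followed by Gm1653, Mir1904, Nav2, Rgs3 and Utrn (16 each), Tbl1xr1 (15) and 4921525O09Rik (14). The nearest gene need not be the one a region acts on, and a long gene or a gene-poor flank collects more regions.

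Haematopoietic transcription regulators had members at 38 of 43 genes, with 184 shared and 187 stress-only distal peaks, so that 49.6% of their distal stress peaks were shared against 46.7% overall. Etv6 had the most (12 shared, 16 stress-only), followed by Cbfa2t3 (11 and 3), Runx1 (10 and 15), Fli1 (10 and 9) and Bcl11a (10 and 8). Cbfa2t3 encodes ETO2, the corepressor in the GATA1 and TAL1 complex. Its members lay within chr8:122655969-122737392. Their annotated distances, each to the nearest start and not all to the same one, ran up to 21931 bp downstream and 38067 bp upstream. Neighbouring stress peaks there shared BM intervals. The erythroid factors with small genes had few: 2 at Gata1 with no stress-only peak, 2 at Gata2 with 3 stress-only, 3 at Tal1 with 4, and 1 at Klf1 with none. Of the sorted antigens, Cd9 had 6 members and 3 stress-only peaks and Kit 5 and 6. All 5 Kit members lay over 100000 bp from the Kit start, 4 of them downstream, and each scored 1000 in the stress list and 512 to 1000 in the BM list.

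Genes of the mature red cell had fewer regions per gene. Members were at 18 of 37 erythroid effector genes, with 44 shared and 37 stress-only distal peaks (54.3% shared). Aqp1, a water channel, and Gypc, a glycophorin, had 5 each, and Rhag, a subunit of the Rh membrane complex, and Ank1, the membrane anchor ankyrin, had 4 each. Megakaryocyte markers had 40 members at 13 of 18 genes (54.8% shared), with 9 at F2rl2, a thrombin receptor, 7 at Itgb3, an integrin of platelets, and 5 each at Vwf (von Willebrand factor) and Rab27b. Of 35 genes of stress erythropoiesis signalling 32 had members, 105 in all against 86 stress-only peaks (55.0% shared). Among these the glucocorticoid target Tsc22d3 had 10 members and no stress-only peak, Nr3c1 had 8 and 5, and the hedgehog receptor Ptch1 had 5 and none. The shared percentage was 48.6% for stem and multipotent progenitor genes, 43.1% for myeloid and 37.5% for lymphoid markers, the last from 15 shared and 25 stress-only peaks at 19 genes. Mast cell and basophil markers had 10 shared and 15 stress-only peaks. These are small counts described without a test.

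Over all genes listed, median RNA levels were higher for genes with more shared regions in all 4 sorted populations, and among detected genes this order did not hold throughout. In stress BFU-E the median gene had a log2(RPKM + 1) of 0.00 with no member, 0.66 ± 0.04 with 1, 1.16 ± 0.04 with 2 to 4, 2.23 ± 0.07 with 5 to 9 and 2.89 ± 0.04 with 10 or more (SD of the library medians, n = 3). The share of genes with a mean of at least 1 RPKM was 38.1% without a member and 71.0% with 10 or more. In BM BFU-E the same classes with 5 to 9 and 10 or more members were at 2.17 ± 0.10 and 2.86 ± 0.21, in MPP at 2.36 ± 0.18 and 2.92 ± 0.12, and in CFU-E at 1.77 ± 0.06 and 2.28 ± 0.10. BM libraries were less even, with 0.72 ± 0.63 for genes with 2 to 4 members. Most of the gradient lay in whether a gene was detected: among genes with at least 1 RPKM in at least 3 libraries, the medians of genes with 5 to 9 members and with none differed by 0.16 instead of 2.23, and with a pseudocount of 0.1 by 5.25. Among such genes the class with 1 member lay below the class with none in all 4 populations. The class with 2 to 4 members also lay below the class with none in stress BFU-E (3.13 against 3.17), MPP (2.96 against 2.97) and CFU-E. In BM BFU-E it lay above (3.14 against 3.10). In CFU-E the class with 5 to 9 members was below the class with none as well. The CFU-E medians were 2.95 for no member, 2.81 for 1, 2.79 for 2 to 4, 2.80 for 5 to 9 and 3.27 for 10 or more.

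Between the BFU-E populations, few genes near shared regions passed the test. With edgeR's quasi-likelihood test and Benjamini-Hochberg adjustment at 0.05, 12 of 10702 genes (0.112%) were called, and 8 of the 5344 tested genes with members were among them, 7 lower and 1 higher in stress BFU-E. Over all genes tested, 0.103% (11 genes) were called lower and 0.00934% (1 gene) higher. Genes with members made up 592 of the 1053 genes (9.84%) at an unadjusted p under 0.05. Ctse, a protease of erythroid cells, was at 99.9, 103 and 105 counts scaled to library size (CPM) in stress BFU-E against 18.01, 10.9 and 14.1 in BM (2.84 ± 0.33 SE as a log2 fold change, adjusted p = 0.0325 by edgeR). Nol4l, with 9 members, was at 98.7, 131 and 146 CPM against 426, 459 and 489 in BM (-1.87 ± 0.19, adjusted p = 0.0237 by edgeR). Groups did not overlap for these 2 genes, as for 21.9% of all genes tested. Another 5 were lower in stress BFU-E: Tifab by -3.43, the monocyte receptor Csf1r by -3.31, the lectin Lgals1 by -3.16, Itsn1 by -2.14 and the non-coding RNA Neat1 by -1.84 on the log2 scale. Myeloid markers, whose summed levels are given above, were at a median of -1.86 over the 19 tested, with 2 called lower, and their part in these differences was not tested.

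The number of calls depended on single libraries and on the tool. It was 4, 0 and 0 without stress BFU-E library 1, 2 or 3, and 2, 2 and 20 without BM library 1, 2 or 3, against 8 with all of them. DESeq2 called 407 genes with members. Of the 10702 genes tested 5344 had members, and these counts are given without the calls over all genes. Of the 5344 member genes 14.7% had 0 counts in BM library 3, against 0.4 to 0.6% in the stress BFU-E libraries. Regulators with prominent shared regions did not pass the test: log2 fold changes by edgeR were 0.42 ± 0.73 for Gata1, -0.46 ± 0.22 for Cbfa2t3, 0.65 ± 0.18 for Tal1, 0.01 ± 0.17 for Kit and -0.06 ± 0.17 for Meis1 (adjusted p = 0.91, 0.552, 0.302, 0.992 and 0.938). These SEs do not show that levels were equal.

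From MPP to BFU-E in the stressed spleen, genes near shared regions moved in both directions. Of 10166 genes tested by edgeR 420 (4.13%) were called. Among 5082 tested genes with members 152 were higher and 158 lower in BFU-E (2.99% and 3.11%), where the background over all genes was 2.03% and 2.11%. Of 635 tested genes with at least 5 members 40 were higher and 38 lower (6.3% and 5.98%). Another 5103 genes with members were not tested, since their mean over the 9 spleen libraries was under 50 counts. With all libraries 310 of the 420 called genes had members, as had 5082 of the 10166 genes tested. Without BFU-E library 1, 2 or 3 the count of called genes with members fell to 181, 189 and 198. These lower counts are given without the calls over all genes.

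Of 17 tested stem and multipotent progenitor genes with members, 8 were lower in BFU-E and none higher. Mecom (9 members), a stem cell transcription factor, was at 113, 124 and 106 CPM in MPP and 18.7, 30.9 and 19.99 in BFU-E (-2.30 ± 0.22, adjusted p = 8.22e-07 by edgeR). Hlf (6 members), another stem cell factor, was at 97.8, 116 and 88.0 against 16.8, 9.51 and 13.2 CPM (-2.93 ± 0.25, adjusted p = 2.17e-07 by edgeR). Nkx2-3 was at 29.5 to 44.8 CPM in MPP and 1.42 to 3.74 in BFU-E, and the collagen gene Col4a2 at 81.0 to 130.0 against 5.67 to 15.1. Groups did not overlap for these 4 genes, as for 21.4% of all genes tested. Over the whole list 10 of 23 tested genes were lower and none higher, and Meis1 (9 members) was not among them. Higher in BFU-E were Ltbp1 (6 members; 52.2, 83.9 and 59.4 CPM against 10.9, 3.97 and 5.55), which binds latent TGF-beta, and Itgb3 (274, 233 and 227 against 99.3, 96.9 and 102). Megakaryocyte markers rose in 8 of 18 and fell in none, at a median log2 fold change of 1.06 over the list against -0.001 over all genes tested. Erythroid effector genes rose in 8 of 24 and fell in 1.

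From BFU-E to CFU-E, the share of genes that fell was larger for genes with more shared regions. Of 10166 genes tested by edgeR 2145 (21.1%) were called, 9.17% higher and 11.9% lower in CFU-E. Among genes with no member 5.82% were lower. The share was 11.9% with 1 member, 20.3% with 2 to 4, 32.7% with 5 to 9 (185 of 566) and 33.3% with 10 or more (23 of 69). The share that was higher stayed between 8.52 and 11.6%. The median log2 fold change went from 0.05 without members to -0.35 with 10 or more. In all, 499 tested genes with members were higher and 917 lower. Both comparisons use the same BFU-E libraries, so they are not independent.

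Gene length and RNA level moved with the number of members. The median gene span of tested genes was 17.2 kb without members and 130 kb with 10 or more, and the median level 37.5 and 94.5 CPM. When genes were split by span into 3 groups of equal size, 4.05% of the shortest were lower in CFU-E with no member, 11.6% with 1 to 4 and 22.6% with 5 or more. The shares were 6.58, 13.3 and 25.5% in the middle group and 8.29, 21.3 and 36.0% in the longest. Within the longest group the median span still rose with the number of members, at 65.53, 78.85 and 126.42 kb. Genes were not split by RNA level. Stress-only peaks followed the same course. Genes with 5 or more stress-only peaks and under 5 members were lower in 22.5% of 373, those with 5 or more members and under 5 stress-only peaks in 27.8% of 313, and those with 5 or more of both in 37.6% of 322. Whether the members and the stress-only peaks differ in this respect was not tested.

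**Figure D4:**
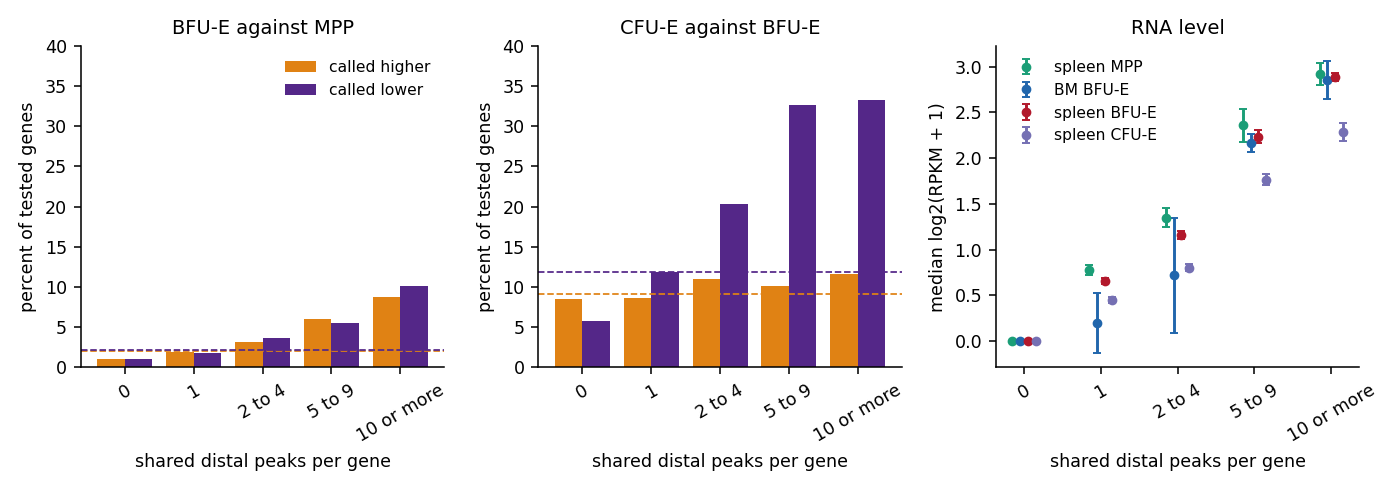
Percent of tested genes called higher or lower (edgeR, adjusted p under 0.05) in BFU-E against MPP (left) and in CFU-E against BFU-E (middle) of the stressed spleen, by the number of shared distal regions nearest to the gene, with dashed lines at the percentages over all tested genes. Right, median log2(RPKM + 1) of genes in the same classes for the 4 sorted populations (points are means of 3 library medians, bars are SD): calls for lower in CFU-E run from 5.82 to 33.3%, and levels in stress BFU-E from 0.00 to 2.89.

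All 18 megakaryocyte markers of the list were lower in CFU-E, including all 13 with a member, at a median log2 fold change of -3.83 against -0.002 over all genes tested. Itgb3 (7 members) was at 274, 233 and 227 CPM in BFU-E and 2.01, 2.29 and 1.32 in CFU-E (-7.00 ± 0.20, adjusted p = 9.65e-16 by edgeR). Vwf (5 members) was at 573, 616 and 497 CPM against 14.7, 15.5 and 21.4 (-5.04 ± 0.15, adjusted p = 1.2e-15 by edgeR). The BFU-E values of both genes were above every CFU-E value by more than 10 times. Pde10a (12 members), a phosphodiesterase, went from 85.9 to 97.8 CPM in BFU-E to 0.70 to 0.93 in CFU-E.

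Of 42 transcription regulators tested 10 were higher and 13 lower in CFU-E, at a median log2 fold change of -0.07. Fli1 (10 members) was at 411, 414 and 370 CPM in BFU-E and 49.4, 51.4 and 52.1 in CFU-E (-2.97 ± 0.12, adjusted p = 2.45e-13 by edgeR). Meis1 fell by 2.01, Runx1 by 1.44 and Etv6 by 1.19 on the log2 scale. Cbfa2t3, with 11 members, was at 329, 332 and 414 CPM in BFU-E and 372, 329 and 341 in CFU-E and did not pass the test. Cd9, a sorted antigen whose absence defines the CFU-E gate, was at 165, 140 and 142 against 27.1, 16.1 and 13.1 CPM, and the part of the gate in this difference was not tested.

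A smaller set with shared regions rose in CFU-E. Nfia (13 members), a nuclear factor of the erythroid lineage, was at 32.0, 28.2 and 31.2 CPM in BFU-E and 152, 177 and 135 in CFU-E (2.34 ± 0.17, adjusted p = 1.36e-09 by edgeR). Xylt1 (8 members), an enzyme of proteoglycan synthesis, was at 9.05, 10.7 and 7.95 against 96.4, 104 and 88.2 CPM (3.38 ± 0.22, adjusted p = 1.95e-10 by edgeR). Of 24 erythroid effector genes 15 rose and 3 fell, at a median of 1.05. Ank1 was at 9.28 to 10.9 CPM in BFU-E and 224 to 275 in CFU-E, and Aqp1 at 121 to 144 and 343 to 389. Bcl11a, the repressor of embryonic globin genes, was at 230 to 256 CPM and 352 to 410, Kit at 250 to 330 and 453 to 537, and Nr3c1 at 119 to 135 and 184 to 261. The ranges did not overlap for any of these 5 genes, as for 37.5% of all genes tested, and edgeR called each of them higher in CFU-E.

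**Figure D5:**
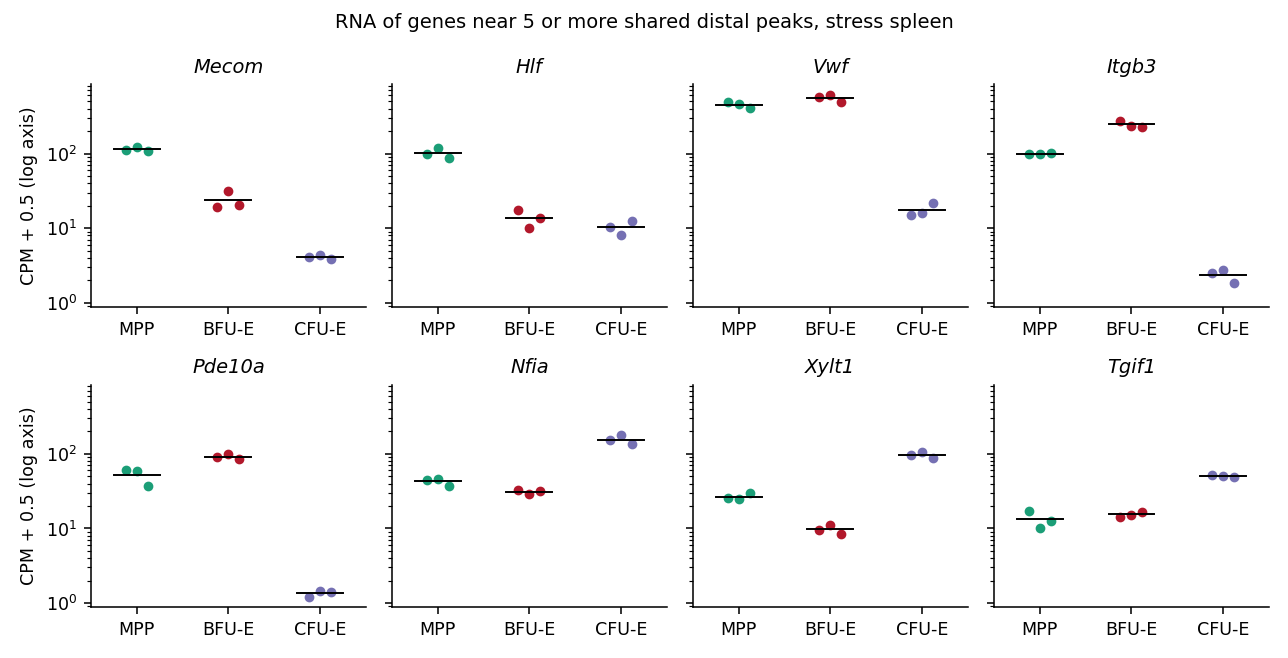
CPM plus 0.5 (log axis) of 8 genes with 5 or more members in each of 3 libraries of spleen MPP, BFU-E and CFU-E, with a bar at the mean. Vwf and Itgb3 are high in BFU-E and low in CFU-E, Mecom falls from MPP on, and Nfia is highest in CFU-E (135 to 177 CPM).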

How the data were processed

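ATAC-seq peaks of steady-state and stress BFU-E and RNA counts of 4 sorted populations were used. Per the submitters' processing notes, Bowtie2 2.3.4.2, STAR 2.6.0b-1, HOMER 4.8 and DESeq2 served on mouse build mm10 (GRCm38). The peak caller, the threshold on the irreproducible discovery rate that the list names mention, and the strand used in counting are not given in the sources used here, so reads of overlapping or antisense genes cannot be told apart. Per the file headers, each deposited peak list gives 1 score per peak and a HOMER distance from the peak centre to the nearest start site, with 1 list for the 3 libraries of a population. The authors deposited raw counts over exons, in 1 table for the 9 spleen libraries and in 1 for the 6 BFU-E libraries that keeps genes by a mean of 50 counts, and RPKM values of the same libraries. BM columns of the 12-library RPKM table ranked genes unlike the deposited counts, so RPKM of both BFU-E populations came from the 6-library table, where 1 BM column has an incomplete name and was used without a number.

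Entries with the same interval were merged (117426 to 61661 for stress, 76147 to 35142 for BM) with their highest score. Of 840 members without a gene name, 837 were named through their start site accession in the RefSeq table of GRCm38.p6. Words were searched on both strands of mm10 in 100 bp to each side of the peak centre. The quasi-likelihood F test of edgeR 4.0.16 under R 4.3.3 was applied to the counts, with TMM scaling and Benjamini-Hochberg adjustment at 0.05, on the genes the authors kept for BFU-E and on genes with a mean of at least 50 counts for the 3 spleen populations fitted together. Standard errors of log2 fold changes were approximated as the absolute fold change over the root of F. CPM values carry TMM factors. The script was tested on simulated data.

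Members, gene lists and words were chosen with earlier results of these data known. Named genes were the 15 with most members, up to 4 per list with most members, the called genes of the BFU-E comparison, and the 6 largest changes each way with 5 or more members in the others. Genes outside that rule (Gata1, Gata2, Tal1, Klf1, Slamf1, Ldb1, Ptch1 and the globin and antigen receptor loci) were picked after their values were seen. Values of some genes the rule names are not reported here. Precision is limited by 3 RNA libraries per group and by the absence of replicate values for peaks. Alternatives tried were the overlap, distance, score and window settings, DESeq2 1.42.0, filters, pseudocounts, a replicate block and leaving out each library.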

Additional observations from a re-analysis of the deposited data

How the results depend on the processing

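The number of shared distal regions stayed within 1.5 times of 22183 under 7 of 8 alternatives and was 4295 with the highest score required in both lists. Their share of distal stress peaks was 45.3% with 50% of the stress peak covered, 43.4% with 50% of both covered, 42.1% with a score of at least 540 in both lists and 22.0% with the highest score in both. The share with the GATA word was 6.88% in 50 bp to each side, 32.4% in whole peaks (27.4% of stress-only distal peaks, the reverse of the order in the central window) and 5.17% with the longer word, and of 150 other motif values 77 moved, mostly with the window. Between the BFU-E populations, 1 called gene had at least 5 members, DESeq2 called 407, and leaving out each library gave 0 to 20. Between BFU-E and MPP the counts were 78 with at least 5 members and 181 to 342 without each library, and between CFU-E and BFU-E 273 and 1129 to 1515. The RPKM difference between genes with 5 to 9 members and none was 5.25 with a pseudocount of 0.1 and 0.16 with the filter, under which genes with 1 member lay below genes with none in all 4 populations. In the fit with a replicate block, 0, 356 and 1449 genes with members were called in the 3 comparisons. All these counts of called genes are of genes with members and are given without the calls over all genes. Same-numbered libraries of the BFU-E pair had correlations of their deviations from -0.034 to -0.022, against -0.014 to 0.039 for other numbers. In spleen the same-numbered libraries were at 0.015 to 0.134, against -0.093 to 0.03 for other numbers. Not every spleen library correlated best with its own number, and the main fits did not take the numbers as pairs. Whether same-numbered spleen libraries came from the same animals is not in the labels and was not tested. The peak lists hold no values per library, so no block could be fitted to them. The cause of these changes was not tested.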
